A study of Homo sapiens with 39 samples.

Results

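Hepatocyte nuclear factor 4 alpha (HNF4A) isoforms 10 and 7 were compared directly in HCT116 cells, a human colorectal cancer line. The comparison used 6 of the 39 RNA-seq libraries of the series, 3 from a line that makes isoform 10 and 3 from a line that makes isoform 7, and these were chosen by their labels alone. In each line a single copy of the isoform, with GFP fused to its C-terminal end, sits in the Flp-In site of HCT116 Flp-In T-REx host cells and is switched on by doxycycline. Both lines were maintained with blasticidin and hygromycin B, which were withdrawn when 2.5 µg/ml doxycycline was added for 48 h. The parental host cells, which carry no HNF4A construct, were maintained with blasticidin and zeocin instead and were treated with doxycycline in the same way. Each isoform is represented by 1 line, and no line made GFP alone, so the effect of an isoform cannot be told apart from a property of its line.

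HNF4A is a nuclear receptor that binds DNA as a homodimer and switches on genes of lipid, bile acid and xenobiotic handling in hepatocytes and of absorption in enterocytes. Its transcripts start from a proximal promoter (P1) or a distal promoter (P2) and are spliced into isoforms that differ at their N- and C-terminal ends. By the standard nomenclature, isoforms 7 and 10 both come from P2 and share the long C-terminus, and they differ in the first exons that encode the N-terminus. The same change of N-terminus separates isoform 11 from isoform 8 and isoform 12 from isoform 9, with other C-termini, and no library is shared between these pairs. The nomenclature is background and is not given in the labels.

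HNF4A RNA did not differ detectably between the lines, and these data hold no protein level. The sum of the HNF4A transcripts was 644, 627 and 713 TPM (transcript abundance scaled to one fixed sum per library) in the isoform 10 libraries and 692, 752 and 754 TPM in the isoform 7 libraries. These means of 661 TPM ± 45.4 (SD, n = 3) and 733 TPM ± 35.5 (SD, n = 3) stood against 31.5 TPM ± 0.589 (SD, n = 3) in the parental cells. The difference between the lines, isoform 10 minus isoform 7, was -0.15 (SE 0.14) on the log2(TPM + 1) scale, with an adjusted p of 0.469 from limma. In every library the row of the isoform named in its label held at least 99.4% of the sum. The 6 libraries had between 27883 and 29024 genes above 0 TPM, and their correlation across genes was 0.9898 to 0.9928 within a line and 0.9837 to 0.9876 between the lines. Read depth is unknown from TPM. Colorectal epithelial markers were present in all 6 libraries with a summed level of 2970 to 3050 TPM in isoform 10 and 4490 to 4650 TPM in isoform 7, while CEACAM5 and KRT20 were under 1 TPM on average in both lines. The marker sums of fibroblasts, leukocytes, endothelium and hepatocytes were at most 20.6 TPM in any of the 6 libraries.

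In total 115 of 14895 genes tested (0.772%) were called, which means a Benjamini-Hochberg adjusted p under 0.05 from limma together with a difference of at least 1 on the log2(TPM + 1) scale. Of these, 90 genes (0.604%) were higher and 25 genes (0.168%) were lower in the isoform 10 line. Small RNAs, pseudogenes and uncharacterised loci set aside, the genes with the largest differences upward were CYP17A1 (steroid 17-alpha-hydroxylase), PDGFC (a platelet-derived growth factor), SUCNR1 (the succinate receptor) and the imprinted non-coding RNA H19. On the same terms, those with the largest differences downward were KRT7 (keratin 7), CDKN2B (a cyclin-dependent kinase inhibitor), ADGRF1 (an adhesion G protein-coupled receptor) and S100A10 (the annexin A2 partner). This order depends on the pseudocount: with 0.1 in place of 1, SUCNR1 was at 3.99 and CYP17A1 at 3.14. The labels speak of triplicate experiments without saying whether these were separate cultures or days, so the p-values measure the spread between these libraries.

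In many of the called genes it was the isoform 7 line that stood apart from the parental cells. Against the parental cells, 40 of the 90 genes higher in isoform 10 were called lower in the isoform 7 line, where 0.832% of all genes tested were, and 14 of the 90 were called higher in the isoform 10 line, where 1.22% of all genes were. The median difference of the 90 genes from the parental cells was 0.30 in isoform 10 and -0.91 in isoform 7. Among the 25 genes lower in isoform 10, 7 were called lower in isoform 10 than in the parental cells, where 0.248% of all genes tested were, and 6 were called higher in isoform 7, where 1.21% were. The medians of the 25 were -0.60 in isoform 10 and 0.82 in isoform 7. The 2 sets of values share the parental libraries and the genes were chosen for the gap between the lines, so they are a description.

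**Figure D1:**
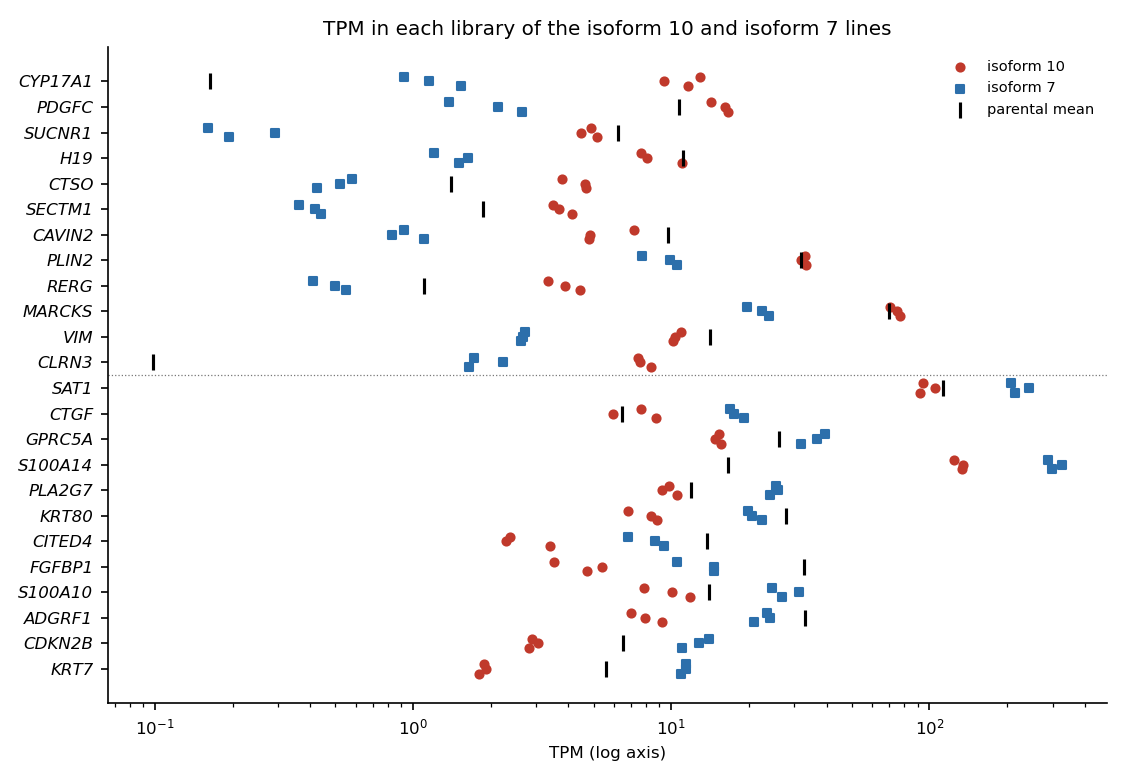
TPM (log axis) in each library of the isoform 10 line (circles) and the isoform 7 line (squares) for the 12 named genes with the largest positive differences (above the dotted line) and the 12 with the largest negative ones. The upright mark is the mean of the parental cells. The 3 circles and 3 squares of a gene do not overlap, which was a condition for choosing these 24 genes. Over all genes tested, the libraries of the 2 lines do not overlap in 39.1%.

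CYP17A1, CLRN3, BAAT, RBP2 and SLC1A7 were each called higher in isoform 10 and had lower means in the parental cells than in either line. CYP17A1 was at 11.6, 9.38 and 12.9 TPM in isoform 10 and at 1.53, 1.15 and 0.922 TPM in isoform 7. Every isoform 10 library was far above every isoform 7 library, and the parental cells were lower still, at 0.164 TPM ± 0.0443 (SD, n = 3). The difference was 2.48 (SE 0.17, limma adjusted p = 3.06e-12). CLRN3 (clarin 3, a tetraspan membrane protein) followed the same order, with 8.36, 7.57 and 7.41 TPM in isoform 10, 1.65, 2.23 and 1.73 TPM in isoform 7 and a parental mean of 0.0987 TPM. Its difference was 1.62 (SE 0.19, limma adjusted p = 1.33e-07). BAAT, which joins bile acids to amino acids, was at 13.7, 11.4 and 11.5 TPM against 4.41, 3.06 and 3.35 TPM, a difference of 1.52. RBP2, the retinol carrier of enterocytes, was at 6.14, 4.63 and 4.75 TPM against 1.26, 1.34 and 1.12 TPM, a difference of 1.45. In both genes the parental mean was lower than any isoform 7 library, at 0.349 TPM for BAAT and 0.350 TPM for RBP2. SLC1A7, a glutamate transporter, showed 3.36 TPM ± 0.331 against 1.18 TPM ± 0.276 (SD, n = 3 each) and a parental mean of 0.0139 TPM. BAAT, RBP2 and SLC1A7 were singled out after their values were seen.

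Because HNF4A acts by binding promoters and enhancers, the letters of its binding motif were searched in RefSeq promoters (GRCh38.p14, 250 bases before to 50 after a gene's start). The motif CAAAGTNCA, searched on both strands, was present in 1 of 58 genes called higher that have an entry and in 0 of 13 called lower. It was in 1.02% of the 10363 genes tested that have an entry, and in 1.36% of all 27305 genes with an entry. Its stricter form CAAAGTCCA, contained in the first, was in 0 of the 58 and 0 of the 13. It was in 0.454% of the genes tested that have an entry and in 0.472% of all with an entry. The single match was in CLRN3. The 250 bases before the start are shown for that gene, for CYP17A1, which had the largest difference upward among the named genes, and for CDKN2B, which had the largest difference downward among the named genes with an entry. Capitals mark the motif, which begins 49 bases before the CLRN3 start. The windows lie at chr10:127892942-127893191, chr10:102837414-102837663 and chr9:22009306-22009555, all on the minus strand.
CLRN3: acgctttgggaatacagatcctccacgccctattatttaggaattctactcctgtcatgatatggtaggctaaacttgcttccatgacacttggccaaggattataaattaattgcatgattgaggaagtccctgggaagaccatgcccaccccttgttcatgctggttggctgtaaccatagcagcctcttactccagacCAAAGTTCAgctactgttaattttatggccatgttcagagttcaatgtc
CYP17A1: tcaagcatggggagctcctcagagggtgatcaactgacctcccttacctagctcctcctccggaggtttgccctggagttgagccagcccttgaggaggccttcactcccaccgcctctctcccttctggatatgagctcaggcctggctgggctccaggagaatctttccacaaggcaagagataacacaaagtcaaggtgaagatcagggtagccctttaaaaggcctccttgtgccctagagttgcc
CDKN2B: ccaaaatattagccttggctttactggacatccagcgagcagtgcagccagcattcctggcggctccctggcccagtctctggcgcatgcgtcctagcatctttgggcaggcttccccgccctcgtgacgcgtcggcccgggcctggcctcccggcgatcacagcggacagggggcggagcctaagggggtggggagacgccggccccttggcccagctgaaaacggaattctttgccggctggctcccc
The other 2 windows hold no match, which says only that these letters are not in them. KRT7 and PDGFC have no entry in the promoter table.

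Genes that respond to HNF4A in most lines of this series differed between these 2 isoforms in some cases and not in others. Of 14 such genes, taken from earlier results of these data and so not an independent list, 12 were expressed above the filter and 3 were called between the lines, where 0.772% of all genes tested were. ACSL5, an acyl-CoA synthetase, was at 58.1 TPM ± 3.62 in isoform 10 and 64.0 TPM ± 2.99 in isoform 7 (SD, n = 3 each) against 0.550 TPM in the parental cells. Its difference was -0.14, with a 95% interval from -0.36 to 0.09. For TRIM10 the interval ran from -0.35 to 0.16, for CAMK2N1 from -0.10 to 0.50 and for SEMA3B from -0.09 to 0.55. DHRS2, at 96.4 TPM in the parental cells, was at 4.43 and 4.35 TPM in the lines, with a wide interval from -0.81 to 0.85. CIDEC, a lipid droplet protein, differed by -0.70 (limma adjusted p = 0.000111) and IL32, a cytokine, by 0.77 (adjusted p = 0.000333), both short of the minimum difference. The 3 genes called were LGALS4 (galectin 4), CAVIN2 (a caveolar protein) and FGFBP1 (a carrier of fibroblast growth factors). LGALS4 was at 3.87, 4.00 and 4.50 TPM in isoform 10 and 1.39, 1.51 and 1.42 TPM in isoform 7, both above the parental mean of 0.137 TPM. CAVIN2, at 9.71 TPM in the parental cells, was at 4.80, 4.85 and 7.18 TPM in isoform 10 and at 1.10, 0.827 and 0.925 TPM in isoform 7. FGFBP1, at 32.8 TPM in the parental cells, was at 4.73, 5.39 and 3.50 TPM in isoform 10 and at 14.7, 14.6 and 10.5 TPM in isoform 7. So in LGALS4 and FGFBP1 the isoform 10 line stood farther from the parental cells, and in CAVIN2 the isoform 7 line did.

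**Figure D2:**
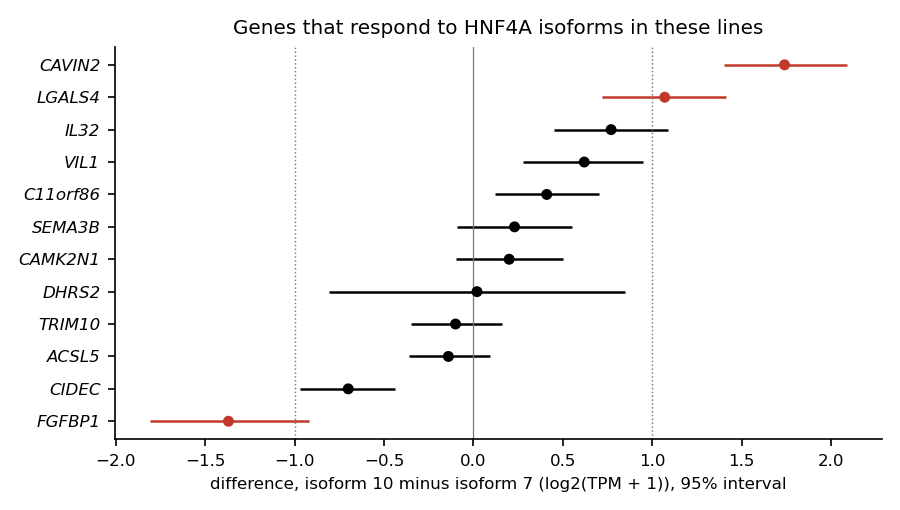
Difference between the lines (isoform 10 minus isoform 7, log2(TPM + 1)) for 12 genes that respond to HNF4A isoforms, with 95% intervals from the limma fit. The 3 called genes are in red, and the dotted lines mark the minimum difference of 1. The intervals of ACSL5, TRIM10, CAMK2N1, SEMA3B and DHRS2 include 0.

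Several genes of growth factors and signalling were called higher in isoform 10. PDGFC was at 16.6, 16.2 and 14.2 TPM in isoform 10, at 2.65, 2.14 and 1.38 TPM in isoform 7 and at 10.7 TPM ± 0.770 (SD, n = 3) in the parental cells. The difference between the lines was 2.47 (SE 0.12, limma adjusted p = 7.12e-16). SUCNR1 was at 5.14, 4.49 and 4.90 TPM in isoform 10 and at 0.193, 0.292 and 0.160 TPM in isoform 7, against 6.24 TPM ± 0.213 (SD, n = 3) in the parental cells. The isoform 7 libraries of both genes were below all others in this comparison. NRG1, the ligand neuregulin 1, was at 26.1 TPM ± 2.74 against 9.53 TPM ± 1.28 (SD, n = 3 each), a difference of 1.37. It was the 1 called gene among 9 tested EGF family ligands and ERBB receptors, whose median difference was -0.12. Of all genes tested 0.772% were called, which is also the background for the Wnt list below. RERG, a small GTPase that slows growth, differed by 1.71, and SECTM1, a secreted and transmembrane protein, by 1.76. From the parental cells RERG differed by 1.21 in isoform 10 and -0.50 in isoform 7, and SECTM1 by 0.73 and -1.03. SULF2, which trims heparan sulfate, differed by 1.03 and NOTUM, the Wnt-inactivating lipase, by 1.10. Among 13 tested Wnt target genes NOTUM was the 1 called, while 7 had an adjusted p under 0.05 and were higher, where 17.3% of all genes tested were, and the median of the list was 0.25 against 0.04 over all genes tested.

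PLIN2, the coat protein of lipid droplets, was at 33.3, 31.9 and 33.1 TPM in isoform 10, at 10.5, 9.85 and 7.68 TPM in isoform 7 and at 31.8 TPM ± 1.24 (SD, n = 3) in the parental cells. The difference was 1.72 (SE 0.06, limma adjusted p = 5.97e-18), with the isoform 10 libraries at the parental level. It was the 1 called of 19 tested lipid droplet and triglyceride genes, where 0.772% of all genes tested were called. Of the 19 genes, 4 had an adjusted p under 0.05 and were higher, a share near the 17.3% of all genes tested. At that threshold 1 (CIDEC) was lower, and the median of the list was 0.08. MARCKS, a protein kinase C substrate at the plasma membrane, behaved alike, with 76.8, 75.2 and 70.2 TPM in isoform 10, 24.0, 22.5 and 19.7 TPM in isoform 7 and a parental mean of 69.9 TPM. Its difference was 1.71 (SE 0.07, limma adjusted p = 7.75e-17).

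Several genes around IGF2 and H19, at the end of the short arm of chromosome 11, were higher in isoform 10, but not all of them. This locus is imprinted: IGF2, a fetal growth factor, is expressed from the paternal copy and H19 from the maternal copy. H19 (chromosome 11, 1995176 to 2001470, GRCh38) was at 11.0, 8.05 and 7.64 TPM in isoform 10 and at 1.51, 1.63 and 1.21 TPM in isoform 7. The parental mean of 11.1 TPM ± 0.484 (SD, n = 3) lay near the highest isoform 10 library. The difference of H19 was 2.00 (SE 0.15, limma adjusted p = 1.07e-11). IGF2 was at 7.61, 7.10 and 7.30 TPM against 1.87, 1.80 and 1.61 TPM, with a parental mean of 10.3 TPM and a difference of 1.60 (SE 0.09, limma adjusted p = 2.02e-14). Its symbol names more than 1 annotated gene, so no position is given for it. Of the neighbours singled out after their values were seen, LSP1 (a leukocyte cytoskeletal protein) differed by 1.52, TNNI2 (a fast skeletal troponin) by 1.58 and SYT8 (a synaptotagmin) by 1.22. Each of these 3 was under 1 TPM on average in isoform 7 and between 2.87 and 4.64 TPM in isoform 10, close to the parental means of 3.26 to 4.72 TPM. MRPL23, a mitochondrial ribosomal protein gene between LSP1 and H19, was at 124 TPM in isoform 10 and 129 TPM in isoform 7, a difference of -0.06 (limma adjusted p = 0.416). IGF2BP3, an RNA-binding protein that binds IGF2 mRNA, lies on another chromosome and also differed, by 1.16. Its exons overlap those of MALSU1 on the opposite strand, and whether the counting used strand is not given in the sources used here.

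Several keratins were lower in isoform 10, while KRT222 and KRT10 were higher. KRT7 was at 1.80, 1.92 and 1.89 TPM in isoform 10, at 10.9, 11.4 and 11.4 TPM in isoform 7 and at 5.60 TPM ± 0.406 (SD, n = 3) in the parental cells. The parental value lay between the lines, which stood apart from it on opposite sides. The difference was -2.09 (SE 0.12, limma adjusted p = 5.92e-14). KRT80 was at 8.84, 8.38 and 6.82 TPM in isoform 10 and at 22.5, 20.5 and 19.9 TPM in isoform 7, a difference of -1.29, with the parental mean of 27.9 TPM above both. The main keratins of simple epithelium, singled out after their values were seen, moved the same way at a much higher level without reaching the minimum difference. KRT8 was at 1180 TPM ± 22.3 against 1920 TPM ± 28.8 (SD, n = 3 each), a difference of -0.71, and its partner KRT18 at 666 TPM ± 16.9 against 1130 TPM ± 27.0, a difference of -0.76. KRT19 differed by -0.43, and limma gave all 3 an adjusted p of at most 1.16e-09. In the other direction, KRT222, a keratin-like gene, was called higher, by 1.12, and KRT10 was higher by 0.16 (limma adjusted p = 0.0126), while KRT15 was at -0.21 (adjusted p = 0.12). KRT8, KRT18 and KRT19 are also part of the epithelial marker sum given above. They make up the main part of its gap between the lines. Among epithelial-mesenchymal state genes, VIM (vimentin, the intermediate filament of mesenchymal cells) was the 1 called of 14 tested, where 0.772% of all genes tested were. VIM was at 10.2, 10.3 and 10.9 TPM in isoform 10 and at 2.61, 2.66 and 2.71 TPM in isoform 7, against a parental mean of 14.1 TPM. Its antisense neighbour VIM-AS1 was at 1.27 and 0.436 TPM in the lines. Of the same list, FN1 (fibronectin), L1CAM and ZEB1 were higher by 0.68, 0.73 and 0.40. CDH1 (E-cadherin), EPCAM and CLDN7 were lower by 0.63, 0.32 and 0.24. All of these had an adjusted p under 0.05 from limma and were under the minimum difference. They were singled out after their values were seen, and not every lower member is named. In all, 4 of the 14 tested members were higher and 4 lower at an adjusted p under 0.05. Over all genes tested, 17.3% were higher and 8.35% lower. The list's median of -0.12 joins members of opposite roles.

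CDKN2B was at 2.82, 3.05 and 2.89 TPM in isoform 10 and at 11.0, 12.8 and 14.0 TPM in isoform 7. As with KRT7, the parental mean of 6.52 TPM ± 0.867 (SD, n = 3) lay between them. The difference was -1.79 (SE 0.12, limma adjusted p = 8.47e-13). CTGF, a matricellular protein and YAP/TEAD target, was at 8.74, 5.95 and 7.61 TPM against 19.2, 17.5 and 16.9 TPM, with the isoform 10 line near the parental 6.42 TPM. It was the 1 called of 16 tested YAP/TEAD targets, whose median was -0.04, where 0.772% of all genes tested were called. ADGRF1, CITED4 (a CBP and p300 partner) and GPRC5A (an orphan receptor) differed by -1.41, -1.33 and -1.19, with both lines below the parental mean in ADGRF1 and CITED4. S100A14, a calcium-binding protein, rose in both lines from 16.6 TPM, to 131 TPM ± 5.63 in isoform 10 and 304 TPM ± 18.9 in isoform 7 (SD, n = 3 each). SAT1 (a polyamine acetyltransferase) and PLA2G7 (the platelet-activating factor acetylhydrolase) differed by -1.18 and -1.28, and S100A10 by -1.40.

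Gene groups differed by small steps. No member of the endoplasmic reticulum chaperone and unfolded protein response list was called, but 16 of 20 had an adjusted p under 0.05 and were higher in isoform 10, and 0 were lower, where 25.6% of all genes tested passed that threshold, 17.3% higher and 8.35% lower. HSPA5 (BiP, the main chaperone of the endoplasmic reticulum) was at 535, 499 and 549 TPM against 357, 367 and 364 TPM, a difference of 0.54 (SE 0.05, limma adjusted p = 7.6e-10), with the parental mean of 447 TPM between them. The list's median was 0.29. Of 12 MHC class I presentation genes, 11 were higher and 0 lower at the same threshold, with a median of 0.24, and TAP1, a part of the peptide transporter, was at 23.4 TPM ± 1.73 against 17.5 TPM ± 0.400 (SD, n = 3 each). Of 25 interferon-stimulated genes, 15 were higher and 2 lower, with a median of 0.29. IFI6 differed by 0.83, OASL by 0.73 and IFIT1 by 0.66, while OAS1 and OAS3, which make the activator of RNase L, differed by -0.72 and -0.48. Of 21 p53 targets, 14 were higher and 1 lower, with a median of 0.26. CDKN1A (p21) was at 233, 217 and 230 TPM against 156, 147 and 140 TPM, both above the parental 104 TPM.

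Cholesterol synthesis genes leaned the other way, with 14 of 22 lower and 3 higher at an adjusted p under 0.05 and a median of -0.20. At that threshold 8.35% of all genes tested were lower and 17.3% higher, which is also the background for the lists that follow. HMGCS1, which makes HMG-CoA for the mevalonate pathway, was at 138, 143 and 109 TPM in isoform 10 and 186, 202 and 177 TPM in isoform 7, a difference of -0.54. MVD, a later enzyme of that pathway, differed by -0.50. MSMO1 was higher by 0.64, and it lies on the long arm of chromosome 4 in the stretch described next. Of 22 mitosis genes 8 were lower and 0 higher, with a median of -0.18, and of 23 DNA replication genes 6 were lower and 0 higher, with a median of -0.09. Intestinal transcription factors moved in both directions: HNF4G (the HNF4A paralog) and GATA6 were higher by 0.73 and 0.70, and KLF4 was lower by 0.52, among 14 tested of which 6 were higher and 2 lower. Brush border genes did the same, with USH1C and DPP4 higher by 0.91 and 0.75 and the aminopeptidase ANPEP at -0.95, among 11 tested of which 5 were higher and 3 lower. AKR1C3 and SULT1A1, of steroid reduction and sulfate conjugation, were the 2 called of 16 tested phase I and II metabolism genes, at 1.13 and 1.07. Of all genes tested 0.772% were called.

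**Figure D3:**
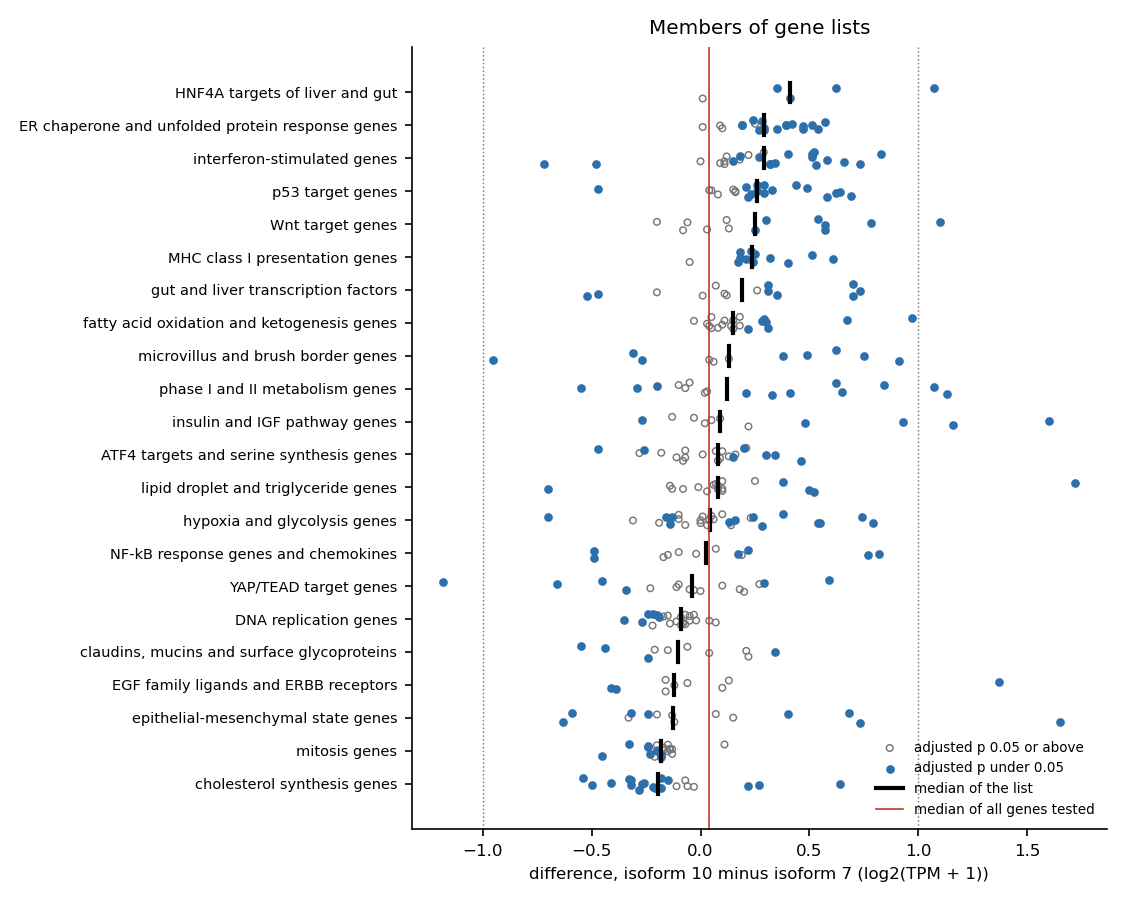
Difference between the lines (isoform 10 minus isoform 7, log2(TPM + 1)) of each tested member of the gene lists with at least 5 tested members. Filled points have a limma adjusted p under 0.05, thick bars are list medians, the red line is the median of all genes tested (0.04) and dotted lines mark a difference of 1. Most points of the endoplasmic reticulum chaperone list lie to the right of that line and most of the cholesterol synthesis list to its left.

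Chromosome 4 carried 22 of the 115 called genes, 19 higher and 3 lower, which is 4.71% of its tested genes. On no other chromosome did the share called exceed 1.34%. Along the chromosome the difference fell into 3 stretches, whose bounds were set in steps of 10 Mb after the values were seen. In the first 30 Mb, 108 of 112 tested genes were lower in isoform 10, 94 of them with an adjusted p under 0.05, and the median difference was -0.43. From 30 to 150 Mb the median of 278 genes was 0.10. From 150 Mb to the end, 72 of 77 genes were higher in isoform 10, 67 of them with an adjusted p under 0.05, and the median was 0.80. This last stretch holds 18 of the 90 genes called higher (20%), among them PDGFC (156760454 to 156971394, GRCh38), CTSO (a cathepsin, 155924118 to 155953917), CPE (carboxypeptidase E), PALLD (palladin, an actin-binding protein), PDLIM3 and the cadherin FAT1. FGFBP1 lies in the first stretch, as do the overlapping neighbours MYL5 and SLC49A3, which differed by -1.05 and -1.12. MYL5 exons also overlap those of ATP5ME on the opposite strand. ATP5ME was at 434 TPM in isoform 10 and 657 TPM in isoform 7, and MYL5 at 5.05 and 11.5 TPM. In the other chromosomes the median of 10 Mb windows with at least 20 genes lay between -0.11 and 0.20, over 225 such windows.

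At the end of the long arm the lines stood on opposite sides of the parental cells, and in the first 30 Mb the isoform 10 line stood below them. The median difference of the last stretch from the parental mean was 0.36, 0.36 and 0.34 in the 3 isoform 10 libraries and -0.42 in each of the 3 isoform 7 libraries. For the first 30 Mb it was -0.32, -0.36 and -0.36 in isoform 10 and 0.01, 0.10 and 0.09 in isoform 7. The replicates of a line did not overlap with those of the other in either stretch. DNA copy number was not measured in these data, and its part in the difference was not tested. After each library was centred within these stretches and 10 Mb windows, 89 genes were called, 86 of them among the 115. Of the 29 genes lost, 19 were on chromosome 4, and among named genes CPE (0.63), PALLD (0.65), PDLIM3 (0.37) and FGFBP1 (-0.93) fell under the minimum difference, and CTSO moved from 1.83 to 1.03. With all genes of chromosome 4 left out, 92 genes were called, 71 higher and 21 lower. Both counts were made after the data were seen.

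**Figure D4:**
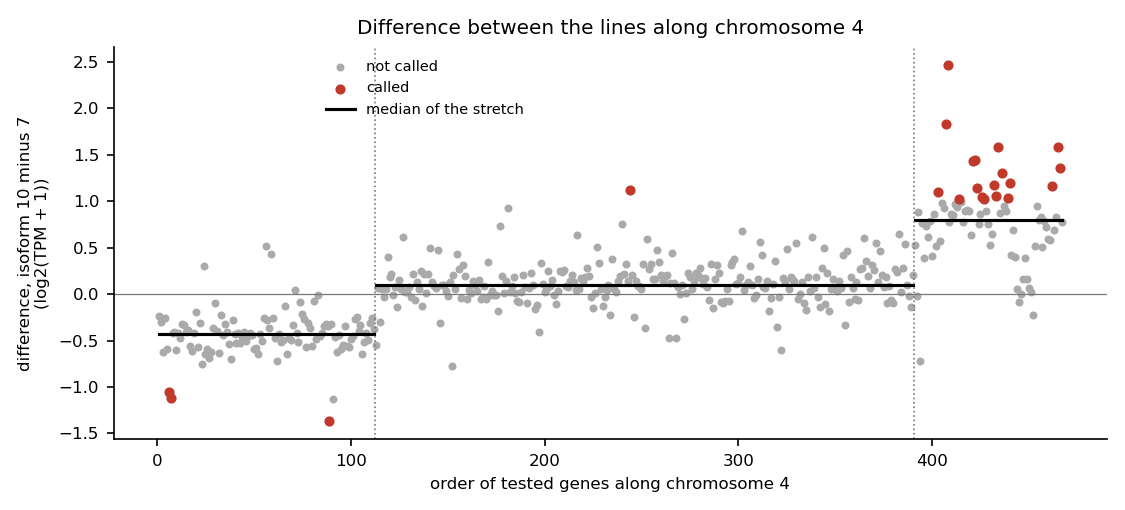
Difference between the lines (isoform 10 minus isoform 7, log2(TPM + 1)) for the tested genes of chromosome 4 in their order along the chromosome, short arm first. Red points are called genes, dotted lines separate the 3 stretches and black bars are their medians (-0.43, 0.10 and 0.80).

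The same change of N-terminus was compared in the other pairs, where 73 of the 14895 genes (0.49%) were called between isoforms 12 and 9 and 24 (0.161%) between isoforms 11 and 8. Of the 115 genes, 39 were called in the same direction between isoforms 12 and 9, which is 33.9% of the 115 and 53.4% of the 73, and 0 in the opposite direction. Between isoforms 11 and 8, 0 were called in the same direction and 7 in the opposite one. No gene was called the same way in all 3 pairs. Across the 14895 genes, Pearson's r of the differences was 0.512 with the isoform 12 and 9 pair and -0.0577 with the isoform 11 and 8 pair. These r are across genes of 1 normalisation and are a description.

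The difference was itself tested against those of the other pairs. Against isoforms 11 and 8 it differed in 85 of the 90 genes called higher and 20 of the 25 called lower, at a limma adjusted p under 0.05, where 22.2% of all genes tested did. Against isoforms 12 and 9 it differed in 32 of the 90 and 5 of the 25, where 2.8% of all genes did. The 115 genes were chosen for a large difference between isoforms 10 and 7, which is itself a term of this test, so these shares are a description and are raised by the choice. CYP17A1, SECTM1, PLIN2, CAVIN2 and CDKN2B differed from both pairs by more than 1 in the direction of their own change. For CYP17A1 the isoform 12 and 9 difference was 0.51 and the isoform 11 and 8 difference 0.02, beside 2.48 here. For PLIN2 they were 0.19 and -0.07, beside 1.72. PDGFC, VIM, IGF2, H19 and KRT7 differed from the isoform 11 and 8 pair by at least 1.64 in size, while between isoforms 12 and 9 they went the same way as between 10 and 7, by 2.80, 2.32, 1.82, 1.51 and -1.38. Between isoforms 11 and 8 the difference was -1.25 for PDGFC and -2.23 for VIM. The chromosome 4 pattern followed the same division: at the end of the long arm the median was 0.57 between isoforms 12 and 9 and -0.18 between isoforms 11 and 8. Relative to the parental cells, the medians of that stretch were 0.39 for isoform 12, -0.21 for isoform 9, -0.14 for isoform 11 and 0.04 for isoform 8. In the lines outside these pairs they were -0.02, 0.22, 0.16, 0.36, 0.40 and 0.35 for isoforms 1 to 6, beside 0.35 for isoform 10. For the first 30 Mb the medians of isoforms 1 to 6 were -0.24, -0.43, -0.23, -0.34, -0.26 and -0.30, beside -0.34 for isoform 10. Shifts like those of the isoform 10 line were thus not particular to it. In that first stretch the median was -0.28 between isoforms 12 and 9 and 0 between isoforms 11 and 8.

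**Figure D5:**
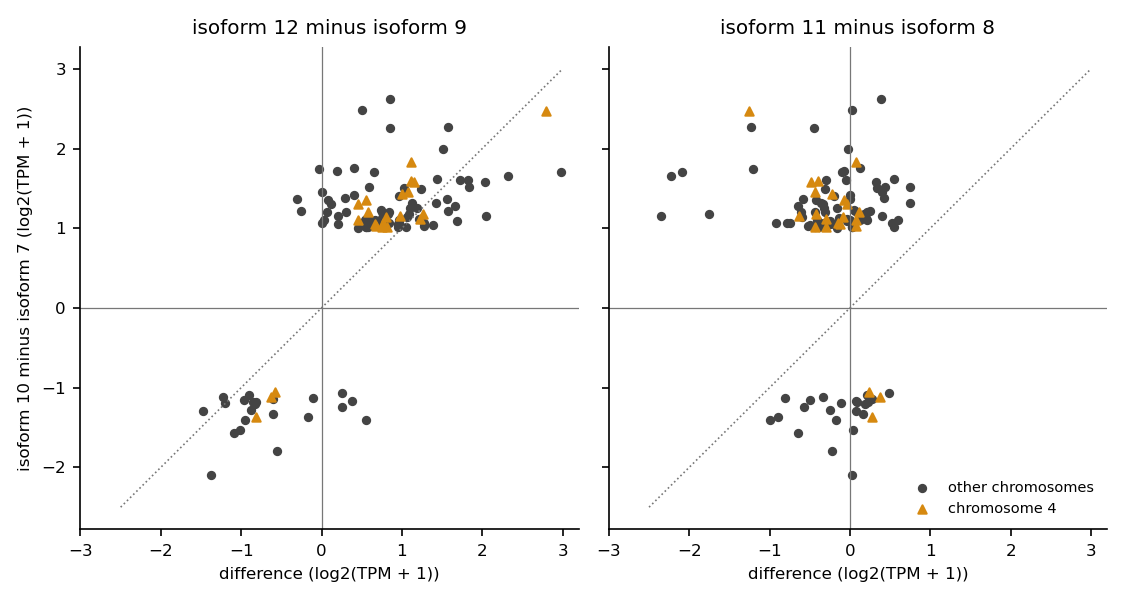
Differences of the 115 called genes in the isoform 12 and 9 pair (left) and the isoform 11 and 8 pair (right), on the x axes, against their difference between isoforms 10 and 7, on the y axis, all on the log2(TPM + 1) scale. Triangles are genes of chromosome 4 and the dotted line marks equal differences. On the left 108 of 115 genes have the same sign as in the 10 and 7 pair, on the right 42.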

How the data were processed

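The authors deposited 1 table per group with TPM for each library, and the 6 TPM columns used sum to between 999977 and 999984.2. Per the submitters' processing notes, the tools were Trimmomatic 0.36, FastQC 0.11.5, kallisto 0.44.0 and DESeq2 1.22.2 with the build GRCh38.p12. Per the file headers, the authors also gave each line's comparison with the parental cells, namely a signal (mean normalised count), log2 fold changes and their errors, a test score, and p-values before and after adjustment. These columns entered no result here. Read counts per gene were not used here, so depth and counting error are unknown.

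The 12 rows HNF4A1 to HNF4A12 were summed to HNF4A and left out of the gene tests. Values were taken as log2(TPM + 1), a scale that understates fold changes of low genes. The filter was an average of 1 TPM or more across the 6 libraries compared, which 14895 of 45434 rows passed. Linear models were fitted by lmFit and trended eBayes (limma 3.58.1, R 4.3.3) over all 39 libraries and 13 groups, with 26 residual degrees of freedom. P-values were adjusted by Benjamini-Hochberg over all genes tested. The 6 libraries are labelled replicates 1 to 3, and deviations of same-numbered libraries correlated at 0.032, 0.055 and 0.085, so the numbers were not taken as pairs.

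The named genes are the 12 with the largest differences in each direction among called genes whose libraries do not overlap, without small RNAs, pseudogenes and uncharacterised loci. To these were added up to 10 genes called the same way in all 3 pairs, the 10 called genes with the smallest F p-value for the differences between pairs, and, in each list, called members up to 6 or else the 4 largest differences. Positions are from GENCODE v29 (GRCh38), matched by symbol for 13401 of the tested genes. A few genes that meet these rules are not reported here by name. The members and lists were chosen with earlier results of these data known.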

Additional observations from a re-analysis of the deposited data

Results flagged for a closer look

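The difference between isoforms 10 and 7 was set against that between isoforms 11 and 8 and between isoforms 12 and 9 by limma's F test of both differences. The values in parentheses are its adjusted p, and the genes listed also differed from at least 1 of the other pairs by 1 or more on the log2(TPM + 1) scale. All were called between isoforms 10 and 7, which is a term of this test, and some were named for a small F p-value. Their small values are thus raised by the choice and are a description. Over all genes tested, 25% had an adjusted p under 0.05 in this F test. Genes whose difference departed by 1 or more from that of each other pair, in the direction of their own change, were PLIN2 (3.55e-15), MARCKS (2.04e-13), SULT1A1 (2.22e-10), CAVIN2 (4.7e-10), CYP17A1 (6.92e-09), SECTM1 (1.06e-08) and CDKN2B (2.71e-08). RERG (8.39e-22) differed from the isoform 11 and 8 pair (-2.09) and from the isoform 12 and 9 pair (2.98), where it was higher still in isoform 12. The effect in isoforms 10 and 7 was upward relative to isoforms 11 and 8, and differed by less than 1 from isoforms 12 and 9, in IGF2BP3 (8.39e-22), PDGFC (5.51e-18), PALLD (2.55e-15), CPE (2.04e-13), SULF2 (2.04e-13), PDLIM3 (2.91e-13), SUCNR1 (3.18e-13) and IGF2 (7.55e-13). The same was found for VIM (2.11e-12), NRG1 (1.33e-11), H19 (2.18e-08), NOTUM (2.31e-07), CTSO (3.21e-07) and CLRN3 (0.0076). It was downward relative to isoforms 11 and 8 in KRT7 (2.57e-10), GPRC5A (5.34e-10), S100A14 (1.16e-07), SAT1 (1.91e-07), PLA2G7 (5.08e-07), KRT80 (2.95e-06), CTGF (1.54e-05), ADGRF1 (4.5e-05), FGFBP1 (0.000547) and CITED4 (0.00275). S100A10 (4.91e-11) differed by 1 or more from the isoform 12 and 9 pair and by -0.41 from the other: it was at -1.40 here, 0.55 between isoforms 12 and 9 and -0.99 between isoforms 11 and 8. What these genes have in common was not tested.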

How the results depend on the processing

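Between isoforms 10 and 7 the 115 calls became 219 with a pseudocount of 0.1, 61 with a filter of 5 TPM and 3815 without a minimum difference. For isoforms 11 and 8 the same settings gave 50, 14 and 1776 calls in place of 24, and for isoforms 12 and 9 they gave 161, 37 and 2450 in place of 73. The genes whose difference departed by at least 1 from that of isoforms 11 and 8, with an adjusted p under 0.05 from limma, were 223, and 394 with the pseudocount of 0.1 or 126 with the filter of 5 TPM. Those that departed from isoforms 12 and 9 were 35, and 12 with the filter of 5 TPM. The settings for these departures between pairs were chosen after seeing the data. A filter of 5 TPM tests fewer genes, and the cause of the other shifts was not tested. With 1 library of either line left out the calls between isoforms 10 and 7 ranged from 110 to 124. A replicate block was also fitted on the 6 libraries of each pair. With it 127 genes were called between isoforms 10 and 7, 7 between isoforms 11 and 8 and 76 between isoforms 12 and 9. The labels do not say whether a replicate number marks a shared day, so whether same-numbered libraries share a batch is not known. The pseudocount of 0.1 moved SUCNR1 to 3.99, CTSO to 2.88, RERG to 2.76, SECTM1 to 2.93 and AKR1C3 to 1.94, each over 1.5 times. Of 98 named genes, SULF2 fell just under the minimum difference without isoform 7 replicate 3 (0.96), and SULT1A1 without isoform 10 replicate 3 (0.96). Directions reversed only in genes near 0 or on chromosome 4: after the centring by position, MSMO1 was at -0.16, ANKRD37 at -0.01 and MT1F at -0.03, and MT1F ranged from -0.04 to 0.24 with 1 library left out. Median-of-ratios scaling lowered the median of all genes from 0.04 to -0.01 and changed the call of 1 named gene, SULF2 (1.00). TPM gives no depth, so counting error is not part of any of these values.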
